A study of Mus musculus with 12 samples.

Results

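The endothelial genes of fat described here are 32 genes that are typical of the cells lining blood vessels. They were given as a list of symbols and matched to the gene identifiers of the count table, where all 32 were found among 53431 rows. All 32 are annotated as protein coding, and all 32 passed the filter on low counts that left 15968 genes to test. The adipose tissue came from mice of a mixed C57BL/6 x 129/SvJ background, all 6 months old at collection. In 4 libraries the label gives Bbs2-/- mice fed Genz-667161, an inhibitor of glucosylceramide synthase, at 0.033% of the feed by weight between 2 and 6 months of age (treated). Another 4 are labelled Bbs2-/- with no treatment (untreated), and the last 4 are labelled WT with no treatment. The series compares untreated Bbs2-/- fat with WT fat and treated with untreated Bbs2-/- fat. WT mice given the inhibitor were not analysed here, and the labels name neither the fat depot nor the sex. Nor do they state whether the libraries come from different animals. Every p-value here refers only to library-to-library spread, some of which may be technical.

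Endothelial cells form the inner wall of every vessel and are held together by junction proteins such as VE-cadherin. Receptors on their surface read growth factors of the VEGF, angiopoietin, apelin, Notch and BMP families, and transcription factors of the ETS and SOX families keep their identity. In fat, the capillaries bring oxygen and take up fatty acids, and they grow and regress with the adipocytes around them. Bbs2 encodes a subunit of the BBSome, which carries membrane proteins to and from the primary cilium, and Ugcg encodes the enzyme that the inhibitor blocks.

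The 12 libraries held between 16317865 and 20224200 estimated counts. Bbs2 itself averaged 61.5 ± 5.30 counts scaled to a library of 1e6 counts (CPM) in treated, 61.9 ± 9.41 in untreated and 12.5 ± 0.267 in WT libraries (SD, n = 4 each), so it was higher in the libraries labelled Bbs2-/-. Whether labels were exchanged or the Bbs2-/- allele leaves a transcript was not tested. Genotypes are given below as the labels state them, and the direction of every comparison with the WT label holds only as far as those labels do. Ugcg averaged 40.7 ± 7.16 CPM in treated, 48.7 ± 9.20 CPM in untreated and 34.2 ± 3.79 CPM in libraries labelled WT. Other cell types differed between the groups as well. Between untreated libraries labelled Bbs2-/- and libraries labelled WT, 39.2% of all genes were called at an edgeR adjusted p under 0.05. Of 16 macrophage genes 13 were higher in untreated libraries labelled Bbs2-/- than in libraries labelled WT, with summed levels of 8120 to 11470 CPM in untreated and 920 to 3924 CPM in libraries labelled WT. Of 15 adipocyte genes 12 were lower, with sums of 19270 to 24420 CPM in untreated and 45280 to 72180 CPM in libraries labelled WT. Foxj1, which drives motile cilia in epithelia, reached up to 7.97 CPM in treated and 9.54 CPM in libraries labelled WT, and at most 0.0998 CPM in untreated libraries. Its higher values were those of treated 1, treated 3, WT 1 and WT 4, and epididymis genes summed to 1083 CPM in a single WT library. The library names of WT 2 and WT 3 are of another type than the rest. Results on which either group of libraries bears are given without them below.

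Defining endothelial genes were well expressed in every library. Per transcript length, on the log2 scale of fragments scaled to transcript length and library depth (FPKM) that the authors deposited, Egfl7 was at 6.80, Cldn5 at 6.36, Cdh5 at 6.31, Pecam1 at 6.18 and Esam at 6.01, as means over the 12 libraries. These are a secreted vessel protein and 4 junction proteins, namely claudin 5, VE-cadherin, CD31 and an immunoglobulin-family adhesion molecule. At the low end of the same scale stood Vwf at 2.82, Clec14a at 1.98, Flt4 at 1.94 and Tal1 at 1.72. Neighbours in this order were often closer than their spread over libraries, which was 0.175 for Tal1 and 0.279 for Clec14a. The order was not the same in each group: Cd93 stood at 4.97 in treated, 5.62 in untreated and 4.72 in libraries labelled WT, and Plvap at 5.06, 5.61 and 4.54 in the same 3 groups. Egfl7 stood at 7.30 in treated, 6.21 in untreated and 6.90 in libraries labelled WT on this log2 FPKM scale.

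Summed over the 32 genes, endothelial RNA came to 3179 ± 393 CPM in treated, 2364 ± 422 CPM in untreated and 2568 ± 484 CPM in libraries labelled WT (SD, n = 4 each). The single libraries ranged over 2859 to 3717 CPM in treated, 1829 to 2826 CPM in untreated and 2115 to 3043 CPM in libraries labelled WT. Every treated library thus lay above every untreated library, while untreated libraries and libraries labelled WT overlapped. Untreated library 1 was the lowest of all 12 for 23 of the 32 genes, and treated library 2 was the highest for 20. The group with the highest mean was treated for 28 genes, untreated for 3 and WT for 1. The lowest mean fell to untreated for 24 genes, to WT for 8 and to treated for 0. In bulk tissue, fewer endothelial cells and less RNA of these genes per cell cannot be told apart.

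**Figure D1:**
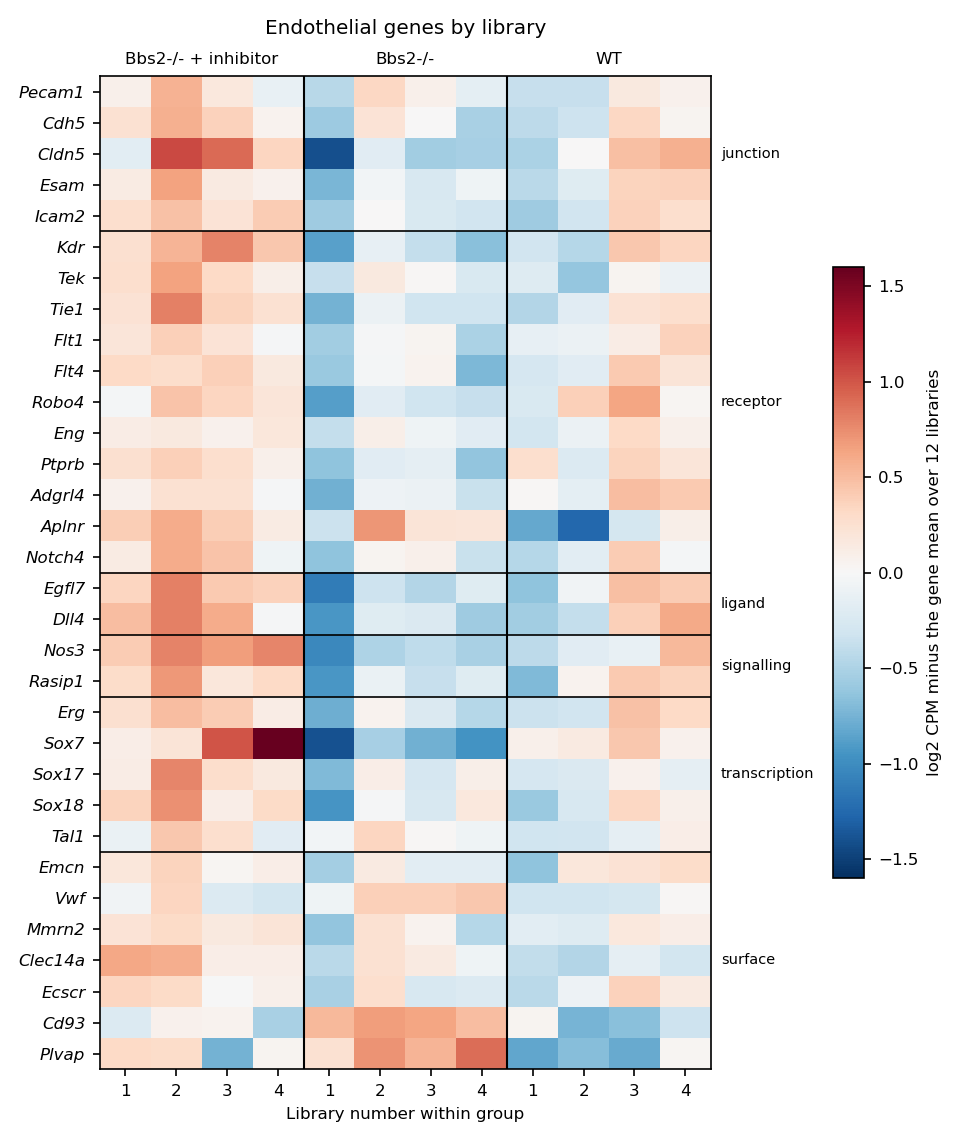
Heat map of the 32 endothelial genes (rows, grouped by role) in the 12 libraries (columns, treated libraries labelled Bbs2-/-, untreated libraries labelled Bbs2-/- and WT). Colour gives log2 CPM minus the mean of the gene over all libraries, red above and blue below it. Most rows are red in the treated columns and blue in untreated library 1, while Cd93 and Plvap in the bottom rows are red in all 4 untreated columns.

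Between untreated fat labelled Bbs2-/- and fat labelled WT, endothelial genes were called in both directions. Cd93, Plvap and Vwf were higher in untreated fat labelled Bbs2-/-, and Sox7, Robo4, Nos3, Ptprb and Adgrl4 were lower. That is 8 of 32 genes, or 25.0%, at an adjusted p under 0.05 from edgeR's quasi-likelihood test, beside 39.2% of all 15968 genes tested (19.6% higher and 19.7% lower). The share is below the background, so these endothelial genes were not called more often than other genes. The median log2 fold change of untreated libraries labelled Bbs2-/- over WT was -0.24 for the 32 genes and -0.02 for all genes, and 24 of the 32 values were negative. The CPM ranges of the groups did not overlap for 2 genes that were higher and 1 that was lower, beside 36.7% of all genes (19.5% higher and 17.2% lower).

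Among surface proteins, 3 of 7 were higher and none was lower. Cd93, a C-type lectin receptor of endothelium and myeloid cells (chromosome 2, 148436640 to 148443563, GRCm38), had 294, 327, 317 and 289.8 CPM in the untreated libraries labelled Bbs2-/-, against 211, 122, 129 and 163 CPM in the libraries labelled WT. All 4 untreated libraries were above the highest WT library, for a log2 fold change of 0.97 (SE 0.18) and an adjusted p of 0.00136 by edgeR. Plvap, which builds the diaphragms of fenestrae and caveolae (chromosome 8, 71497765 to 71511752), had 70.3, 98.2, 86.6 and 111 CPM in untreated libraries labelled Bbs2-/-, against 33.4, 37.0, 34.0 and 60.6 CPM in libraries labelled WT. The groups again did not overlap, with WT 4 nearest to the untreated range (log2 fold change 1.15, SE 0.26, edgeR adjusted p = 0.00454). Vwf, the multimeric clotting factor stored in Weibel-Palade bodies, had 45.6, 62.8, 62.5 and 64.7 CPM in untreated libraries labelled Bbs2-/-, against 38.4, 38.5, 39.5 and 48.7 CPM in libraries labelled WT. Here the lowest untreated library fell inside the WT range (log2 fold change 0.51, SE 0.16, edgeR adjusted p = 0.0205).

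Macrophage genes moved with Cd93, which myeloid cells also express, between the groups. Within groups their order differed. WT 1 had the highest macrophage sum (3924 CPM) and the most Cd93 of the libraries labelled WT. Untreated 1 had the highest macrophage sum (11470 CPM) but less Cd93 than untreated 2 and untreated 3, and untreated 3 had the lowest untreated sum (8120 CPM). Treated 1 had the highest treated sum (2210 CPM) but less Cd93 than treated 2 and treated 3. The part of macrophages in the Cd93 difference was not tested. Vwf is also carried by megakaryocytes and platelets, whose 10 listed genes summed to 49.6 to 132.5 CPM in untreated libraries labelled Bbs2-/- and 27.8 to 33.0 CPM in libraries labelled WT. Of the 5 that could be tested, 1 was called, namely Pf4, and it was higher. Pf4 averaged 68.3 ± 32.4 CPM in untreated and 18.6 ± 4.61 CPM in libraries labelled WT, and so made up most of these sums. The defining platelet gene Itga2b stood at 2.40 to 4.20 CPM in untreated and 2.04 to 4.79 CPM in libraries labelled WT, so it overlapped between the groups. The part of platelets in the Vwf difference was not tested.

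The genes that were lower came from the transcription factors, signalling genes and receptors. Sox7, a SOX-family transcription factor of early and angiogenic endothelium (chromosome 14, 63943673 to 63950732), had 13.8, 25.1, 21.3 and 18.8 CPM in untreated libraries labelled Bbs2-/-, against 38.4, 40.2, 49.1 and 38.1 CPM in libraries labelled WT. It was the only member whose untreated range lay wholly below the WT range (log2 fold change -1.07, SE 0.30, edgeR adjusted p = 0.0166). The related Sox17 and Sox18 did not pass, with log2 fold changes of -0.02 and -0.14. Nos3, endothelial nitric oxide synthase (chromosome 5, 24364810 to 24384474), had 25.7, 37.4, 39.8 and 36.7 CPM in untreated libraries labelled Bbs2-/-, against 39.2, 46.1, 48.3 and 75.1 CPM in libraries labelled WT. The highest untreated library was just above the lowest WT library, and WT 4 stood well above the rest (log2 fold change -0.58, SE 0.20, edgeR adjusted p = 0.0332).

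Receptors gave 3 lower and 0 higher of 11. Robo4, a vessel-stabilizing receptor, had 53.3, 86.8, 78.8 and 75.8 CPM in untreated libraries labelled Bbs2-/-, against 83.0, 128, 151 and 100.1 CPM in libraries labelled WT, with an overlap of a single pair (log2 fold change -0.65, SE 0.20, edgeR adjusted p = 0.0199). Ptprb, the phosphatase VE-PTP that acts on Tek and VE-cadherin, had 99.4, 137, 139.6 and 99.7 CPM in untreated libraries labelled Bbs2-/-, against 186, 133, 199 and 176 CPM in libraries labelled WT (log2 fold change -0.55, SE 0.15, edgeR adjusted p = 0.0132). Adgrl4, an adhesion G protein-coupled receptor of sprouting vessels, averaged 71.2 ± 14.9 CPM in untreated libraries labelled Bbs2-/- and 102 ± 21.8 CPM in libraries labelled WT (log2 fold change -0.52, SE 0.17, edgeR adjusted p = 0.0331). The VEGF receptors Kdr, Flt1 and Flt4 had log2 fold changes of -0.54, -0.31 and -0.36 and did not pass (edgeR adjusted p = 0.0684, 0.144 and 0.167). The other receptors Tek, Tie1, Eng and Notch4 lay between -0.34 and 0.10 and did not pass. None of the 5 junction genes passed. Pecam1 differed by 0.09 (SE 0.19) and Cdh5 by -0.12 (SE 0.21), while Cldn5 was at -0.80 (SE 0.32, edgeR adjusted p = 0.0697). Aplnr, the apelin receptor, pointed the other way at 0.71 (SE 0.28) and did not pass either (edgeR adjusted p = 0.0592).

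This comparison depended on the libraries labelled WT and on scaling. The calls for Cd93, Plvap and Sox7 held without each single library. Those for Vwf (without WT 2 or WT 3), Ptprb (without untreated 4), Robo4 (without untreated 1, untreated 4, WT 2 or WT 3), Adgrl4 (without untreated 1, untreated 4, WT 3 or WT 4) and Nos3 (without untreated 1, untreated 2, untreated 4, WT 3 or WT 4) did not, with edgeR adjusted p between 0.0512 and 0.102 where a call was lost. The count of 8 became 4 without untreated 4, 4 without WT 3 and 14 without WT 1, the last with 11 lower. With library size alone in place of TMM, which moved the median of all genes to 0.16, 4 members were higher and 1 was lower. Without WT 2 and WT 3 together 2 calls held, Cd93 and Ptprb, while Plvap and Sox7 reached 0.0677 and 0.115 as adjusted p by edgeR. Without treated 1, treated 3, WT 1 and WT 4, the libraries with the higher Foxj1 values, 2 were higher (Cd93 and Plvap) and 2 lower (Sox7 and Robo4).

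In treated against untreated fat labelled Bbs2-/-, 15 of 32 endothelial genes were higher and 1, Cd93, was lower, while 16 were not called (adjusted p under 0.05, edgeR's quasi-likelihood test). That is 50.0% of the members beside 37.2% of all genes, and the 15 higher genes compare with 18.5% of all genes called higher and 18.8% called lower. The median log2 fold change of treated over untreated was 0.51 for the 32 genes and 0.03 for all genes, and 29 of the 32 values were positive. CPM ranges did not overlap for 16 genes that were higher and 1 that was lower, beside 39.7% of all genes (19.0% higher and 20.7% lower). The untreated libraries are the same ones that were set against WT above, so the comparisons are not independent and are given side by side only. The genes that were higher covered every role except the surface proteins, where 0 of 7 were higher.

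Both signalling genes were higher. Nos3 had 69.6, 90.9, 83.6 and 90.6 CPM in treated libraries, against 25.7, 37.4, 39.8 and 36.7 CPM in untreated libraries. The lowest treated library was far above the highest untreated library (log2 fold change 1.26, SE 0.20, edgeR adjusted p = 0.000572). Rasip1, a Rap1 effector needed for vessel lumens in mice, averaged 70.0 ± 11.5 CPM in treated and 41.6 ± 9.66 CPM in untreated libraries (log2 fold change 0.75, SE 0.24, edgeR adjusted p = 0.0274).

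Transcription factors gave 3 higher and 0 lower of 5. Sox7 had 39.1, 42.0, 73.0 and 111 CPM in treated libraries, against 13.8, 25.1, 21.3 and 18.8 CPM in untreated libraries. No treated library reached down to the untreated range, although treated 3 and treated 4 were well above treated 1 and treated 2 (log2 fold change 1.74, SE 0.31, edgeR adjusted p = 0.00132). Erg, the ETS factor that holds the endothelial programme, averaged 42.9 ± 4.87 CPM in treated and 27.4 ± 6.57 CPM in untreated libraries (log2 fold change 0.65, SE 0.21, edgeR adjusted p = 0.0293). Sox17 passed narrowly at 0.52 (SE 0.19, edgeR adjusted p = 0.0489) and Sox18 did not at 0.60 (SE 0.24, edgeR adjusted p = 0.0741). Tal1, shared with blood progenitors, was at 0.06 (SE 0.17).

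Among 11 receptors 6 were higher. Kdr, the main signalling receptor for VEGF-A (chromosome 5, 75932827 to 75978458), had 151, 183, 218 and 169 CPM in treated libraries, against 68.9, 114, 96.8 and 79.1 CPM in untreated libraries. The groups did not overlap (log2 fold change 1.01, SE 0.22, edgeR adjusted p = 0.00405). Tie1, the partner of the angiopoietin receptor Tek, averaged 124 ± 25.4 CPM in treated and 72.2 ± 13.2 CPM in untreated libraries (log2 fold change 0.78, SE 0.19, edgeR adjusted p = 0.00806). Tek itself passed narrowly with overlapping groups (log2 fold change 0.44, SE 0.16, edgeR adjusted p = 0.0495). Robo4 and Ptprb, both lower in untreated libraries labelled Bbs2-/- than in libraries labelled WT, were 0.66 (SE 0.20, edgeR adjusted p = 0.0193) and 0.63 (SE 0.15, edgeR adjusted p = 0.00628) higher on the log2 scale in treated than in untreated libraries. Adgrl4, the third receptor that was lower there, was at 0.44 (SE 0.17) and was not called (edgeR adjusted p = 0.0659), and Aplnr was at 0.15 (SE 0.27, edgeR adjusted p = 0.698). Flt4, the VEGF-C receptor that vein, lymphatic and sprouting endothelium share, was at 0.57 (SE 0.19, edgeR adjusted p = 0.0371). Eng, a co-receptor for BMP ligands, and Notch4, a Notch receptor of endothelium, were at 0.26 and 0.49 and did not pass (edgeR adjusted p = 0.145 and 0.0892). Flt1, the decoy receptor for VEGF-A, was at 0.43 (SE 0.16) and just missed the threshold (edgeR adjusted p = 0.0508).

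Both ligands and 2 of 5 junction genes were higher. Dll4, the Notch ligand of tip and arterial cells, had 56.1, 70.2, 60.3 and 39.6 CPM in treated libraries, against 21.0, 34.9, 33.9 and 27.1 CPM in untreated libraries (log2 fold change 0.95, SE 0.27, edgeR adjusted p = 0.0167). Egfl7 had 143, 196, 149.7 and 145 CPM in treated libraries, against 51.6, 88.9, 80.8 and 98.2 CPM in untreated libraries (log2 fold change 0.99, SE 0.25, edgeR adjusted p = 0.00885). Cldn5, the tight junction protein of vessels (chromosome 16, 18776847 to 18778262), had 93.8, 219, 199 and 134 CPM in treated libraries, against 39.9, 92.8, 71.7 and 73.2 CPM in untreated libraries. Treated 1 was only just above the untreated range (log2 fold change 1.22, SE 0.33, edgeR adjusted p = 0.0128). Icam2, an adhesion molecule for leukocytes, was at 0.61 (SE 0.19, edgeR adjusted p = 0.027). Cdh5, Esam and Pecam1 had log2 fold changes of 0.50, 0.52 and 0.21 and did not pass (edgeR adjusted p = 0.0805, 0.0713 and 0.414).

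Cd93 was lower, with 176, 216, 214 and 143 CPM in treated libraries, against 294, 327, 317 and 289.8 CPM in untreated libraries. No treated library reached the untreated range (log2 fold change -0.71, SE 0.18, edgeR adjusted p = 0.00791). Plvap was at -0.58 (SE 0.25, edgeR adjusted p = 0.0905) and Vwf at -0.33 (SE 0.15, edgeR adjusted p = 0.114), both with overlapping ranges and without a call. These 3 are the members that were higher in untreated libraries labelled Bbs2-/- than in libraries labelled WT, and the same untreated libraries stand in both comparisons. The other surface proteins, the sialomucin Emcn, the matrix protein Mmrn2, the lectin Clec14a and the small membrane protein Ecscr, had log2 fold changes of 0.34 to 0.38, and none passed.

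Other cell types moved in this comparison as well, beside 37.2% of all genes called. The macrophage sum was 835 to 2210 CPM in treated and 8120 to 11470 CPM in untreated libraries, and 15 of its 16 genes were lower. The adipocyte sum was 47860 to 75230 CPM in treated and 19270 to 24420 CPM in untreated libraries, and 13 of its 15 genes were higher. Red cell genes summed to 1457 to 3312 CPM in treated and 537 to 1076 CPM in untreated libraries, and 4 of the 5 tested were higher. The part of these changes in the endothelial differences was not tested.

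Calls for Nos3, Sox7, Kdr, Ptprb, Tie1, Egfl7, Cldn5 and Cd93 held without each single library, while those for Dll4, Robo4, Rasip1, Icam2, Erg, Flt4, Tek and Sox17 were each lost without 1 to 11 of the 12 libraries, at edgeR adjusted p between 0.05 and 0.152. The count of 16 became 9 without untreated 1 and 10 without treated 2, and 10 with library size alone, 9 of them higher. In the fits without untreated 1 and without treated 2, Vwf joined Cd93 as lower (edgeR adjusted p = 0.0449 and 0.0205). The other calls in those fits were higher. Without treated 1, treated 3, WT 1 and WT 4 the count was 11. The share of all genes called in these fits is not given here.

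**Figure D2:**
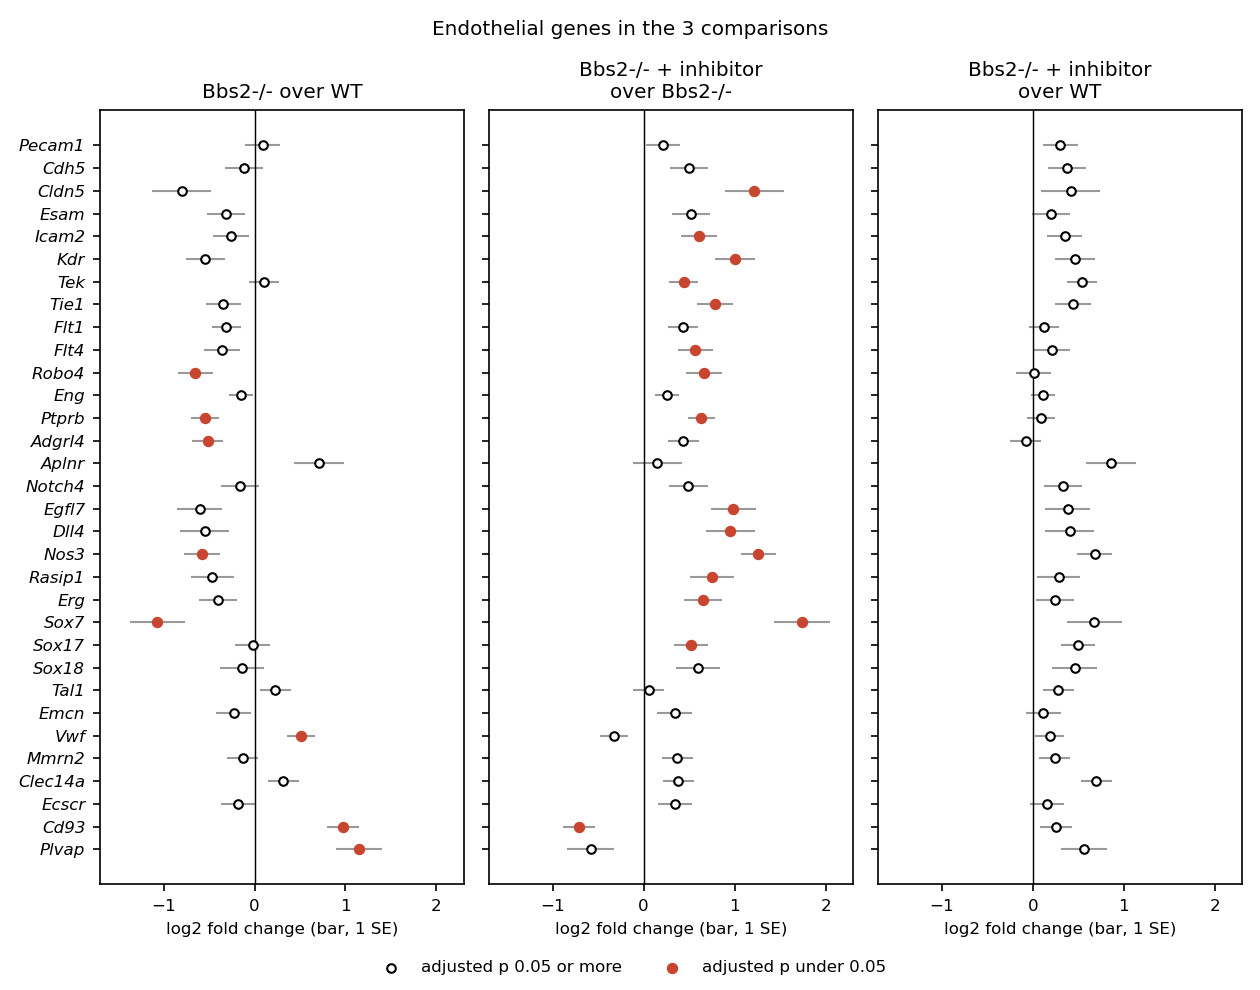
Log2 fold change of each of the 32 endothelial genes in the 3 comparisons (horizontal axis; bar, 1 SE), untreated libraries labelled Bbs2-/- over WT, treated over untreated libraries labelled Bbs2-/- and treated libraries labelled Bbs2-/- over WT. Filled points have an edgeR adjusted p under 0.05. In the middle panel 29 of 32 points lie right of 0 and 16 are filled, and in the right panel none is filled.

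Promoter sequence was looked at for members that were higher together in treated fat. Of the 32 members 17 have an entry in the RefSeq promoter table for GRCm38.p6. The 250 bases before the start are shown for Kdr, Dll4 and Cldn5, a receptor, a ligand and a junction gene whose levels in treated fat were 2.01, 1.94 and 2.33 times those in untreated fat. They were chosen after their values were seen, and they differ in how often they hold the GGAAG core of ETS factors such as Erg. Capitals mark GGAAG on either strand, so CTTCC counts as a match. The Kdr window lies at chr5:75978456-75978705 on the minus strand, that of Dll4 at chr2:119325534-119325783 on the plus strand and that of Cldn5 at chr16:18776597-18776846 on the plus strand. Each is written 5′ to 3′ on the strand of its gene.
Kdr: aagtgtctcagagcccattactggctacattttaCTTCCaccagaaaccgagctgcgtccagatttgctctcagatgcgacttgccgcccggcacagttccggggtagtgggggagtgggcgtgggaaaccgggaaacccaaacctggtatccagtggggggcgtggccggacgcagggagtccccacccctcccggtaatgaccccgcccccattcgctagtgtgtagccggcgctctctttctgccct
Dll4: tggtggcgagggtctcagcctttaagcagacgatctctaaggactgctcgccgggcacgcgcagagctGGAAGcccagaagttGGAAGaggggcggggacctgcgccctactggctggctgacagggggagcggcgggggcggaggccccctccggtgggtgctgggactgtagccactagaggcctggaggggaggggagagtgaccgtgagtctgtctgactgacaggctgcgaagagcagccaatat
Cldn5: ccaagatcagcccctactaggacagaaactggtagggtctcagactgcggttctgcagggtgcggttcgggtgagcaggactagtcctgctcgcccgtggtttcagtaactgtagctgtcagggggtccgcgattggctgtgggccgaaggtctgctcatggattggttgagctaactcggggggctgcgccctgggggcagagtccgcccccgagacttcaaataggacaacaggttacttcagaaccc
The Kdr window holds the core at 1 place and the Dll4 window at 2, and the Cldn5 window has 0. GGAAG was present in 13 of the 17 member windows (76.5%) and in 64.1% of all 32841 windows of the same length. The SOX core AACAAT was in 2 of 17 (11.8%, against 9.43% of all), the KLF core CCACCC in 7 (41.2%, against 28.1% of all) and the GATA core GATAAG in 0 (against 6.55% of all). All were searched on both strands, and matches of different motifs may share bases. A match describes letters in a window, not a bound site.

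**Figure D3:**
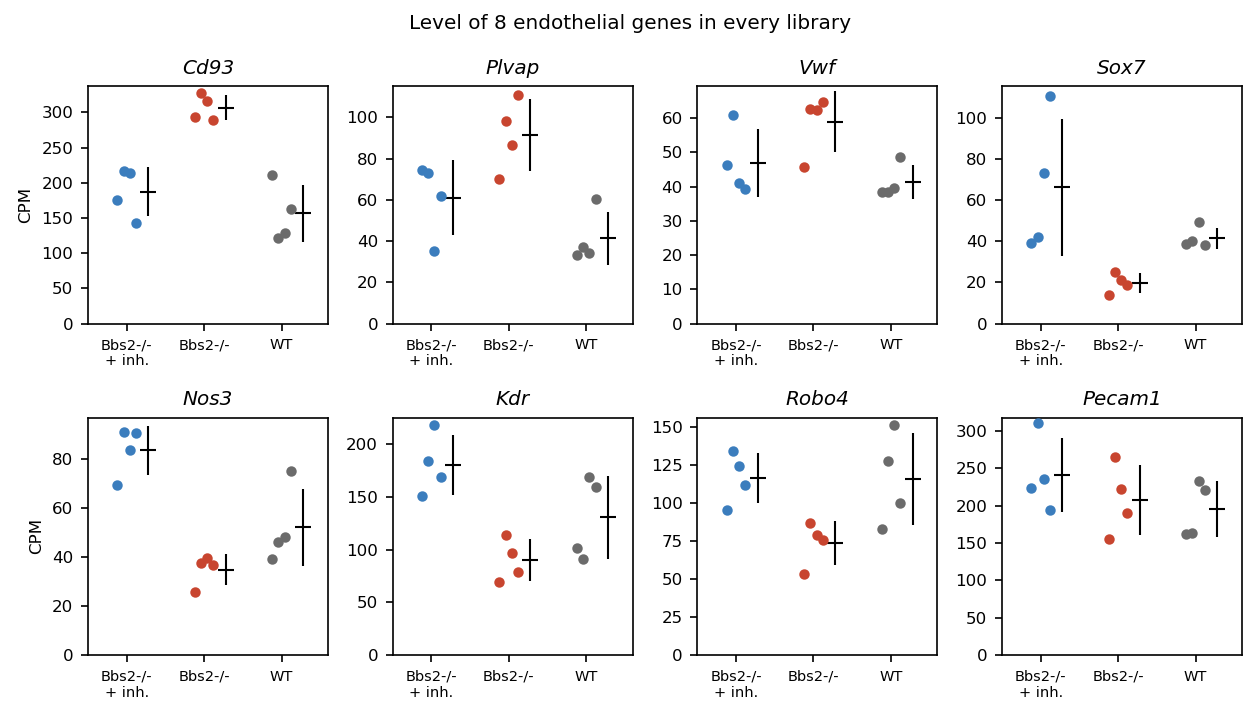
Level in CPM of 8 endothelial genes in each library of treated Bbs2-/- (left), untreated Bbs2-/- (middle) and WT (right). Points are libraries, and the line and bar are the mean and SD of 4. Cd93 and Plvap are highest in the untreated group, Sox7, Nos3, Kdr and Robo4 are lowest there, and Pecam1 overlaps between all 3 groups.

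Between treated fat labelled Bbs2-/- and fat labelled WT, no endothelial gene was called by edgeR. None of 32 passed an adjusted p of 0.05, beside 0.257% of all genes (0.175% higher and 0.0814% lower). At an unadjusted p under 0.05 there were 8, all higher, and DESeq2 called 2, Nos3 and Clec14a, at adjusted p of 0.0479 and 0.0217. The share of all genes passing either of these rules is not given, so neither count shows an excess of endothelial genes. The median log2 fold change of treated over WT was 0.32 for the members and -0.02 for all genes, and 31 of 32 values were positive. The CPM ranges did not overlap for 4 genes that were higher and 0 that were lower, beside 4.89% of all genes (2.68% higher and 2.21% lower). These were Tek, Sox17, Clec14a and Aplnr. Clec14a, a lectin-like surface protein of growing vessels, had 19.0, 18.5, 13.3 and 13.3 CPM in treated libraries, against 9.37, 8.92, 11.1 and 10.1 CPM in libraries labelled WT (log2 fold change 0.70, SE 0.17, edgeR adjusted p = 0.157). Aplnr had 78.1, 90.1, 78.5 and 65.1 CPM in treated libraries, against 33.7, 24.9, 49.2 and 63.5 CPM in libraries labelled WT, where the highest WT library nearly met the lowest treated one (log2 fold change 0.86, SE 0.28, edgeR adjusted p = 0.283). Nos3 was at 0.68 (SE 0.20, edgeR adjusted p = 0.224) and Sox7 at 0.68 (SE 0.30, edgeR adjusted p = 0.455). Robo4 and Ptprb lay close to 0, at 0.01 (SE 0.19) and 0.09 (SE 0.15). Missing the threshold does not show that treated fat and fat labelled WT were alike.

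The members were then set against their own common level, taken in each library as the median over the 32 genes of log2 CPM minus the mean of the gene over all libraries. That level was 0.29 in treated, -0.26 in untreated and -0.04 in libraries labelled WT on average, and its lowest value was -0.63 in untreated 1. Relative to it, 7 genes were higher in all untreated libraries than in all libraries labelled WT. The differences of the means were 1.40 for Plvap, 1.23 for Cd93, 0.98 for Aplnr, 0.73 for Vwf, 0.52 for Clec14a, 0.45 for Tal1 and 0.31 for Pecam1 on the log2 scale. Another 3 were lower in all untreated libraries than in all libraries labelled WT, Sox7 by -0.86, Cldn5 by -0.58 and Robo4 by -0.41. Among all genes, 20.8% failed to overlap when set against the same level. In the treated against the untreated libraries the relative values did not overlap for 5 genes that were higher, Sox7 (1.09), Nos3 (0.72), Kdr (0.47), Egfl7 (0.47) and Tie1 (0.24), and for 8 that were lower, led by Cd93 (-1.28), Plvap (-1.17) and Vwf (-0.88), beside 42.4% of all genes. In the treated libraries against those labelled WT, Aplnr was higher (0.62) and Adgrl4 lower (-0.38) without overlap, beside 6.37% of all genes. These values have no test, since the members themselves set the level. Taking the level off removes differences that the members share, but brings them into genes that do not share them. The shares of all genes set against this level are therefore not a like background for the member counts. By CPM alone 36.7%, 39.7% and 4.89% of all genes did not overlap in these comparisons.

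Across the 12 libraries most members went up and down together. The median Spearman coefficient over the 496 pairs of members was 0.70 and 54 pairs were below 0. After the mean of its group was taken out of each value, the median Pearson coefficient was 0.69, so members also shared their differences between libraries of the same group. Cdh5 was most like the others (mean Spearman 0.72 with the other 31), followed by Erg (0.72) and Dll4 (0.70). Cd93 (-0.16), Plvap (-0.03) and Vwf (0.12) were least like them. Within groups, Vwf went with the other members again (mean Pearson 0.57), Plvap less so (0.30), and Sox7 (0.12) and Cd93 (0.04) hardly at all. The points share libraries, depth and tissue make-up, and the coefficients are given as a description.

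The genes outside the set with the most similar pattern, by mean Spearman coefficient with the 32 members over the 12 libraries, were Trp53i11 (0.73), Arhgef15 (0.72), Jam3 (0.72), Epha2 (0.72), Kif26a (0.72), Kcnj8 (0.71), Sh3bp5 (0.71), Nos2 (0.71), Efnb2 (0.71) and Unc5b (0.71). Arhgef15 is a RhoA exchange factor of endothelium, Efnb2 an arterial ephrin, Unc5b a netrin receptor of arteries and Kcnj8 a potassium channel subunit of pericytes. The genes were picked on the same 12 libraries, so a difference between the groups like that of the members was built into the choice and is given with no test. Their log2 fold changes of treated over untreated libraries ran between 0.26 for Sh3bp5 and 1.24 for Kcnj8, with 0.77 for Trp53i11, 0.73 for Arhgef15 and 0.64 for Efnb2.

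The vessel genes outside the set were counted by list. In untreated fat labelled Bbs2-/- against fat labelled WT, other pan-endothelial genes split into 9 higher and 8 lower of 37, beside 39.2% of all genes called, and their median was -0.13 on the log2 scale. The 9 included genes that macrophages also use: Stab1, a scavenger receptor, averaged 469 ± 89.7 CPM in untreated and 114 ± 57.5 CPM in libraries labelled WT (log2 fold change 2.04, edgeR adjusted p = 0.000395). Palmd was lower (log2 fold change -1.25, edgeR adjusted p = 0.000132) and Nostrin, which binds endothelial nitric oxide synthase, was higher (1.88, edgeR adjusted p = 0.000231). In treated against untreated fat the same list had 17 higher and 7 lower, with a median of 0.44, beside 37.2% of all genes called. Stab1 was lower there (-2.16, edgeR adjusted p = 0.000309) and Palmd higher (1.17, edgeR adjusted p = 0.000164). Neither this list nor any other vessel list had a gene called between treated fat labelled Bbs2-/- and fat labelled WT.

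Among the ligands and co-receptors of the VEGF, angiopoietin and apelin receptors, 2 were higher and 3 lower of 15 in untreated fat labelled Bbs2-/- against fat labelled WT, with a median log2 fold change of -0.20, beside 39.2% of all genes called. In treated against untreated fat 5 were higher and 3 lower, with a median of 0.19, beside 37.2% of all genes called. Vegfa, the ligand of Kdr and Flt1, averaged 109 ± 7.21 CPM in untreated libraries labelled Bbs2-/- and 315 ± 132 CPM in libraries labelled WT (log2 fold change -1.53, SE 0.25, edgeR adjusted p = 0.000694). It averaged 319.8 ± 69.0 CPM in treated libraries, against 109 ± 7.21 CPM in untreated libraries (log2 fold change 1.55, SE 0.25, edgeR adjusted p = 0.000655). Vegfb, the ligand of Flt1, was at -1.49 in untreated over WT (edgeR adjusted p = 0.000552) and 1.30 in treated over untreated fat (edgeR adjusted p = 0.00117). Both are also made by adipocytes, whose gene sums moved in the same direction, and the part of adipocytes in these differences was not tested. Svep1, a matrix protein of vessels, went the other way, at 2.08 (edgeR adjusted p = 0.000327) and -1.57 (edgeR adjusted p = 0.00145), as did the co-receptor Nrp2, at 1.15 (edgeR adjusted p = 0.000863) and -1.21 (edgeR adjusted p = 0.000638). Angpt1, the activating ligand of Tek, had log2 fold changes of -0.01 and 0.19 and did not pass in either comparison. Angpt2 and Angpt4 did not pass in untreated over WT (edgeR adjusted p = 0.0926 and 0.722). In treated over untreated fat Angpt2 was at -0.62 (edgeR adjusted p = 0.02). Angpt4 was at 1.34 there (edgeR adjusted p = 0.0191), with low means of 2.14 CPM in treated and 0.841 CPM in untreated libraries.

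Of 15 genes for the capillaries of fat and their lipid uptake, 2 were higher and 8 lower in untreated fat labelled Bbs2-/- against fat labelled WT (median -0.86), beside 39.2% of all genes called. In treated against untreated fat 9 were higher and 2 lower (median 0.62), beside 37.2%. The adipocyte gene sums given above moved in the same direction as most called genes of this list. The part of adipocytes in these counts was not tested. Gpihbp1, the capillary protein that carries lipoprotein lipase, averaged 80.5 ± 18.0 CPM in untreated and 172 ± 61.3 CPM in libraries labelled WT (log2 fold change -1.09, SE 0.24, edgeR adjusted p = 0.0046). It averaged 170.0 ± 22.0 CPM in treated libraries against 80.5 ± 18.0 CPM in untreated libraries (log2 fold change 1.08, SE 0.24, edgeR adjusted p = 0.00519). The capillary transcription factor Tcf15 was at -1.48 (edgeR adjusted p = 0.0013) and 1.81 (edgeR adjusted p = 0.000423) in these comparisons, and Rgcc at -1.34 (edgeR adjusted p = 0.000691) and 1.31 (edgeR adjusted p = 0.000773). Timp4, a metalloproteinase inhibitor that adipocytes also make, was at -2.58 (edgeR adjusted p = 1.49e-05) and 2.00 (edgeR adjusted p = 3.35e-05). Fabp5 went the other way, at 0.66 (edgeR adjusted p = 0.0053) and -0.77 (edgeR adjusted p = 0.00241). The fatty acid transporter Cd36 was at -0.05 and -0.04 and passed in neither. Gpihbp1, Angpt1, Angpt2, Angpt4, Cd36, Myh11 and Pdpn were named after their values were seen.

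Of 11 genes of veins and activated endothelium, 5 were higher and none was lower in untreated fat labelled Bbs2-/- against fat labelled WT (median 0.43), beside 39.2% of all genes called and 19.6% called higher. Icam1 and Vcam1, which hold leukocytes to the wall, were at 1.41 (edgeR adjusted p = 0.000192) and 1.70 (edgeR adjusted p = 0.000196), and the post-capillary venule receptor Ackr1 was at 1.43 (edgeR adjusted p = 0.00364). Sele, E-selectin, averaged 1.09 ± 0.330 CPM in untreated and 0.0136 ± 0.0272 CPM in libraries labelled WT (edgeR adjusted p = 0.00109). In treated against untreated fat (median -0.28, beside 37.2% of all genes called) 2 of the 11 were higher, with Ephb4 at 0.59 (edgeR adjusted p = 0.00909) and Nos2 at 0.83 (edgeR adjusted p = 0.00921), and 4 were lower, with Icam1 at -1.29 (edgeR adjusted p = 0.000287) and Vcam1 at -1.50 (edgeR adjusted p = 0.000347). Macrophages express Icam1 and Vcam1 as well, and the macrophage sums given above moved the same way; their part was not tested.

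Arterial genes had 1 higher and 0 lower of 14 in untreated fat labelled Bbs2-/- against fat labelled WT (median -0.03) and 4 higher and 1 lower in treated against untreated fat (median 0.22). For this list and those that follow, the share of all genes called was 39.2% in the first comparison and 37.2% in the second. The 1 was Cxcl12, at 0.59 (edgeR adjusted p = 0.00368) and then -0.39 (edgeR adjusted p = 0.0296). Of 13 Notch pathway genes 3 were higher and 3 lower in untreated fat labelled Bbs2-/- against fat labelled WT (median -0.31), near the 39.2% of all genes, with the target gene Heyl at -0.61 (edgeR adjusted p = 0.0125) and Rbpj, the DNA-binding partner of Notch, at 1.21 (edgeR adjusted p = 0.000563). In treated against untreated fat 6 were higher and 2 lower (median 0.41), with Jag2 at 0.94 (edgeR adjusted p = 0.00244), Heyl at 0.68 (edgeR adjusted p = 0.00717) and Rbpj at -1.35 (edgeR adjusted p = 0.000324). Of 14 BMP and TGF-beta genes 3 were higher and 4 lower in untreated fat labelled Bbs2-/- against fat labelled WT (median 0.02), and 4 were higher and 2 lower in treated against untreated fat (median 0.34), beside 39.2% and 37.2% of all genes called. Tgfbr2 was at 1.26 (edgeR adjusted p = 5.25e-05) and -1.07 (edgeR adjusted p = 0.000104), and Bmp6 at -1.16 (edgeR adjusted p = 0.00361) and 1.16 (edgeR adjusted p = 0.00377).

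Of 15 tip cell and angiogenesis genes 4 were higher and 2 lower in untreated fat labelled Bbs2-/- against fat labelled WT (median 0.30), and 2 were higher and 4 lower in treated against untreated fat (median 0.04). These shares are close to the 39.2% and 37.2% of all genes called. Cxcr4 was at 1.29 (edgeR adjusted p = 0.000119) and -1.32 (edgeR adjusted p = 9.97e-05), while Mcam, an adhesion molecule of endothelium and pericytes, was at -1.19 (edgeR adjusted p = 0.000103) and 1.37 (edgeR adjusted p = 5.37e-05). Cxcr4, like Nrp2, Svep1, Rbpj and Tgfbr2 above, moved in the same direction as the macrophage and fibroblast genes called. The part of those cells was not tested. The lymphatic list had 5 higher and 0 lower of 11, then 0 higher and 5 lower, with medians of -0.43 and -0.39, so that the first median has the opposite sign to the calls. The called genes were Sned1, Fxyd6, Itga9, Thy1 and Pdpn, several of which fibroblasts and other cells also express. Its defining gene Prox1 stayed at 0.163 to 2.79 CPM in treated, 0.200 to 0.642 CPM in untreated and 0.270 to 1.05 CPM in libraries labelled WT. Of 12 pericyte and smooth muscle genes 2 were higher and 5 lower, then 2 higher and 1 lower (medians -0.55 and 0.39). The smooth muscle actin gene Acta2 was at -1.80 (edgeR adjusted p = 0.000283) in untreated over WT and 0.82 (edgeR adjusted p = 0.0195) in treated over untreated fat. In untreated over WT, Cnn1 was at -5.36 (edgeR adjusted p = 0.00698) and Myh11 at -2.38 (edgeR adjusted p = 0.0134). In libraries labelled WT, Cnn1 averaged 41.6 ± 71.7 CPM and Myh11 247 ± 300.5 CPM, spreads larger than the means.

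**Figure D4:**
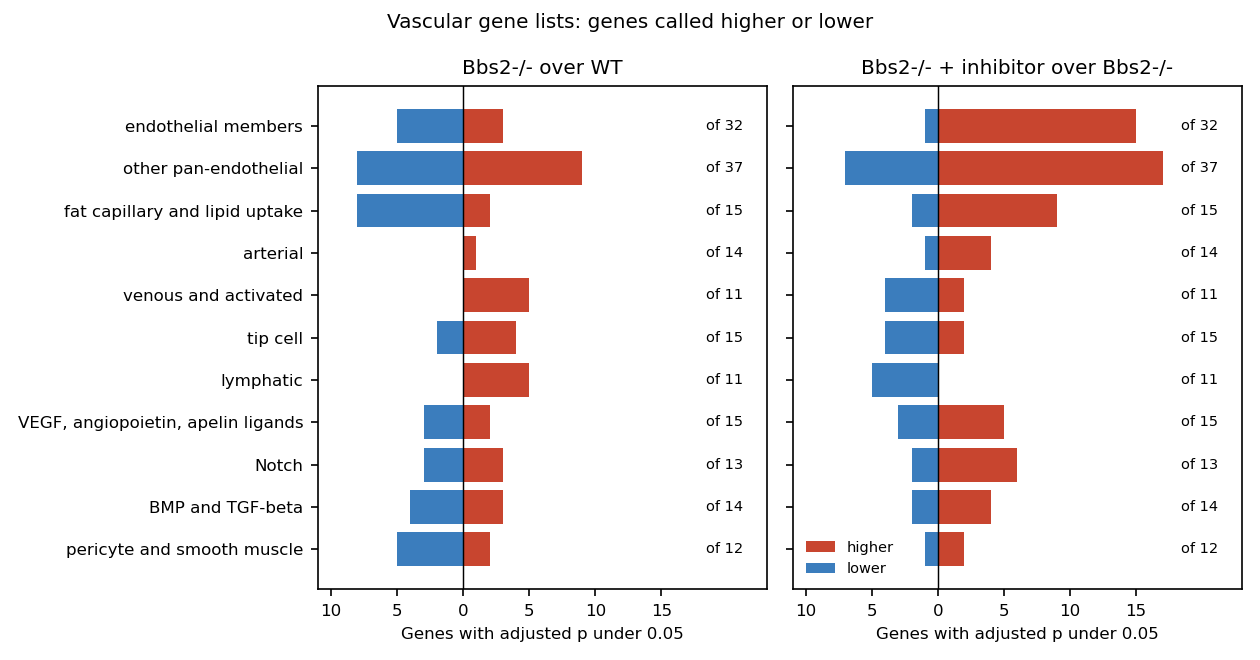
Number of genes with an edgeR adjusted p under 0.05 in each vessel gene list, higher to the right in red and lower to the left in blue, with the number tested in each list at the right. The left panel is untreated libraries labelled Bbs2-/- over WT and the right panel treated over untreated libraries labelled Bbs2-/-. The 32 endothelial genes show 3 higher and 5 lower in the left panel and 15 higher and 1 lower in the right panel.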

How the data were processed

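Adipose RNA of 12 libraries was sequenced after a stranded mRNA preparation, per the labels' protocols. The authors deposited estimated counts per gene, of which 92.96% to 94.17% are whole numbers in each library (tolerance 1e-06), and log2 FPKM values that share an upper quartile. The build is mm10, per the submitters' processing notes, while no aligner or counter is named in the labels or headers read. Counts were rounded and fitted over all 12 libraries with edgeR 4.0.16 in R 4.3.3 (quasi-likelihood test, TMM scaling, default filter on low counts). Benjamini-Hochberg adjustment ran over all 15968 genes tested, with a threshold of 0.05. Levels are CPM on TMM-scaled library sizes, and log2 CPM used a prior count of 2. Symbols and coordinates came from GENCODE's annotation of GRCm38. Named genes were all members, up to 4 genes with the smallest p for each of 21 lists and comparison, and the 10 most similar genes. The members and lists were chosen with earlier results of these data known. Alternatives used DESeq2 1.42.0, limma 3.58.1, other filters and scalings, and fits that left out libraries. The script was tested on simulated data. No library repeated another of its group within sampling noise (chi-square per degree of freedom 17.8 to 84.9).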

Additional observations from a re-analysis of the deposited data

Results flagged for a closer look

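Each of the 96 sets of 4 libraries (32 genes in 3 groups) was screened for a library far from the other 3 by Dixon's test at its 95% level, which chance passes in about 1 in 20 sets, and 6 passed. Esam was at 171 CPM in treated 2, against 115 to 121 CPM in the other treated libraries, and Egfl7 was at 196 CPM in the same library, against 143 to 149.7 CPM. Vwf was low in untreated 1, at 45.6 CPM against 62.5 to 64.7 CPM in the other untreated libraries. In WT 4, Vwf was at 48.7 CPM against 38.4 to 39.5 CPM in the other libraries labelled WT, and Plvap was at 60.6 CPM against 33.4 to 37.0 CPM. Emcn was low in WT 1, at 27.1 CPM against 47.8 to 51.9 CPM.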

How the results depend on the processing

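Over 23 alternatives no member reversed its direction where it was called. The calls for Cd93 in both comparisons with untreated libraries, and for Kdr, Tie1, Cldn5, Egfl7, Sox7, Nos3 and Ptprb in treated against untreated fat, held in all 23. For untreated fat labelled Bbs2-/- against fat labelled WT, the 8 members called became 5 with library size alone, 2 without WT 2 and WT 3, and 4 without the libraries with higher Foxj1 values, and leaving out single libraries gave 4 to 14. For treated against untreated fat, the 16 became 10 with library size alone, and single libraries left out gave 9 to 17. For treated fat labelled Bbs2-/- against fat labelled WT the 0 became 2 with DESeq2 and stayed 0 without each single library. It also stayed 0 without WT 2 and WT 3, and without the libraries with higher Foxj1 values. The cause was not tested. Library size alone moved the median log2 fold change of all genes from -0.02 to 0.16 for untreated libraries labelled Bbs2-/- over WT and from 0.03 to -0.10 for treated over untreated fat. With the replicate number as a block the counts were 10, 20 and 0 in these comparisons. The share of all genes called under each alternative is not given here. The numbers were not taken to pair the libraries, since 4 of 12 same-numbered pairs had deviations correlated above 0.1 and 5 of 12 libraries correlated best with their own number. Depth was 16317865 to 20224200 counts, and 4 libraries per group limit the precision.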

Other observations

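Gene lists outside the vessels are given here as counts, untreated libraries labelled Bbs2-/- over WT first and treated over untreated second. They stand beside 39.2% and 37.2% of all genes called. Of 16 cell cycle genes 15 were higher, then 15 lower, with Pcna, the replication clamp, at 1.57 and -1.41 on the log2 scale (edgeR adjusted p = 8.82e-05 and 0.000138). Of 10 fibroblast genes 5 were higher, then 6 lower, with the matrix proteoglycan Lum at 2.04 and -1.79 (edgeR adjusted p = 0.000261 and 0.000497). Of 9 progenitor and mast cell genes 5 were higher and 1 lower, then 1 higher and 5 lower. The mast cell protease Cma1 averaged 12.4 ± 12.4 CPM in untreated libraries, a spread as large as its mean. Of 8 mesothelial genes 0 were higher and 2 lower, and then none was called. Of 9 ciliated epithelium genes 0 were higher and 3 lower, and then 2 higher. The mesothelial and ciliated epithelium shares lay below those of all genes. None of these lists had a gene called between treated fat labelled Bbs2-/- and fat labelled WT. The epididymis genes did not pass the filter on low counts. Red cell genes had 0 of 5 called between untreated fat labelled Bbs2-/- and fat labelled WT.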
